A study of Homo sapiens with 6 samples.

Results

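The MYC network is a family of basic helix-loop-helix leucine zipper transcription factors, and 10 of its genes were examined in HSC-4, an established human oral squamous cell carcinoma cell line. The genes were *MYC*, *MYCL*, *MAX*, *MXD1*, *MXD3*, *MXD4*, *MXI1*, *MNT*, *MLX* and *MLXIP*, chosen by their symbols out of the 58884 Ensembl genes of each count table, and all 10 were found. One group of 3 libraries came from cells treated with 50 μM DAPT for 24 h, and the other group of 3 served as controls. DAPT inhibits γ-secretase, the protease that frees the intracellular domain of Notch receptors. The study's methods give DMSO vehicle for the controls, while the headers of their count tables carry the letters GM without explanation, so an effect of the vehicle cannot be told apart from that of DAPT if it was left out. The sources used here do not say whether the libraries of a group came from separate cultures, so the p-values measure the spread between these libraries. The work rests on 1 cell line.

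MYC and its relative MYCL activate transcription as dimers with MAX, most often at the DNA sequence called the E-box. MXD1, MXD3, MXD4, MXI1 and MNT bind MAX as well, recruit SIN3 corepressor complexes and oppose MYC at the same sites, and the MXD proteins are known from cells that leave the cycle and differentiate. MLX is a second hub. It pairs with MLXIP, better known as MondoA, a sensor of glucose-derived sugar phosphates, and with some of the MXD proteins. *MYC* is a direct Notch target in leukemic T cells, which is why the network is of interest under a γ-secretase inhibitor.

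The libraries held between 12276313 and 16317672 counted reads, and the members had from 97 reads (*MYCL* in DAPT 2) to 2170 reads (*MAX* in DAPT 1). Levels are given as CPM, the counts scaled to a common library size with TMM factors. As a check of the treatment, the Notch target *HES1* was at 42.5, 50.3 and 48.2 CPM in controls and 27.9, 27.2 and 27.3 CPM with DAPT, and *HEY1* was at 32.6, 35.2 and 36.0 CPM and at 9.61, 8.04 and 8.60 CPM. The 5 squamous epithelial markers *KRT5*, *KRT14*, *KRT6A*, *TP63* and *CDH1* summed to between 4054 and 4162 CPM in controls and between 2314 and 2442 CPM with DAPT, a sum in which *KRT5* had the largest part (mean 2701 and 1315 CPM). Of these markers 4 were lower and 1, *CDH1*, was higher, from a mean of 512 to 617 CPM (log2 fold change 0.27, adjusted p = 1.39e-04 from edgeR). *KRT14* was low throughout, at no more than 3.54 CPM. The control 1 library stood apart in the 4 fibroblast markers *COL1A1*, *COL1A2*, *COL3A1* and *PDGFRB*. These summed to 525.4 CPM there, against 56.47 and 55.08 CPM in the other controls and 48.78 to 53.32 CPM with DAPT. *COL1A2* held 3452 reads in control 1 and at most 28 reads in any of the other libraries, and *COL3A1* held 491 reads against at most 4. The 3 endothelial markers summed to between 0.994 and 1.68 CPM in controls and between 2.41 and 2.92 CPM with DAPT. Of these, *CDH5* was low but higher with DAPT, from a mean of 0.328 to 1.81 CPM (log2 fold change 2.42, adjusted p = 4.93e-05 from edgeR). *VWF* was not called and *PECAM1* was not tested. The sum of the 3 leukocyte markers stayed at or below 0.2167 CPM, with *CD3E* at 0 reads throughout. The fold change of each member is therefore given with and without control 1. In bulk RNA, fewer cells of a type and less RNA per cell cannot be told apart.

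Between the DAPT and control libraries, 2 of the 10 members were higher and 3 were lower at an adjusted p under 0.05 (edgeR quasi-likelihood test, Benjamini-Hochberg adjustment over 15001 tested genes). By the same call, 35.2% of all tested genes changed, with 17.2% of all tested genes higher and 18.0% lower, so a count of 5 among 10 members is not far from the share in the whole table. Of the genes called, 48.7% were higher, and with scaling by library size alone 61.5%. The 3 DAPT libraries lay entirely on one side of the 3 controls in the same 5 members and in 46.3% of all tested genes. The members were *MYC*, *MYCL* and *MXI1* on the lower side and *MXD1* and *MXD4* on the higher side. All 10 passed the filter on low counts. The median log2 fold change was -0.01 over the members and 0.01 over all tested genes.

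*MYC* fell most. It lies on chromosome 8 from 127735434 to 127742950 (GRCh38, plus strand), and no other gene of the count tables shares its exons. Its level was 67.5, 72.4 and 72.8 CPM in the control libraries and 41.9, 40.8 and 41.8 CPM in the DAPT libraries. Every DAPT library was below every control library, and the DAPT libraries were nearly alike. This was a 1.71-fold decrease (log2 fold change -0.77, 95% interval -0.90 to -0.64, standard error 0.06, adjusted p = 2.7e-09 from edgeR), and *MYC* ranked 105 of the tested genes by p-value. Without control 1 the decrease was as large, with a log2 fold change of -0.81 (adjusted p = 4.73e-11, edgeR). *PVT1*, the long noncoding RNA gene next to *MYC*, had overlapping groups, at 12.5, 11.6 and 13.4 CPM in controls and 11.6, 12.4 and 9.68 CPM with DAPT (log2 fold change -0.15, 95% interval -0.38 to 0.09).

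*MYCL* encodes a MYC relative that was first found amplified in lung cancer. Its gene lies on chromosome 1 from 39895426 to 39902256 (minus strand). It was the least abundant member, with 10.5, 11.6 and 11.9 CPM in controls and 7.60, 7.09 and 8.76 CPM with DAPT. The groups did not overlap, and *MYCL* had a log2 fold change of -0.53 (95% interval -0.78 to -0.28, adjusted p = 0.0014 from edgeR). It was -0.59 without control 1 (adjusted p = 6.1e-04, edgeR). *MYCN*, the remaining MYC gene and no member, had 0 reads in all 6 libraries, where 3 reads, taken as the smallest signal, would have been 0.187 to 0.248 CPM. This limit covers counting error only.

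*MAX* encodes the partner shared by the MYC proteins and the repressors (chromosome 14, 65006174 to 65102695, minus strand). Its levels were 120, 124 and 126 CPM in controls and 141, 132 and 125 CPM with DAPT. The groups overlapped, since DAPT 3 lay below control 3. The log2 fold change of 0.10 (95% interval -0.01 to 0.21, adjusted p = 0.15 from edgeR) was not called. Scaling by library size alone moved it to 0.15 with an adjusted p of 0.0305 in edgeR, so the call for *MAX* depended on the scaling. Without control 1 it was 0.08 and not called. Genes on the other strand overlap 16.1% of its exonic bases. For *MXD3* this overlap is 22.3%, for *MLX* 18.1% and for *MNT* 12.2%, and the reads were counted by strand.

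**Figure D1:**
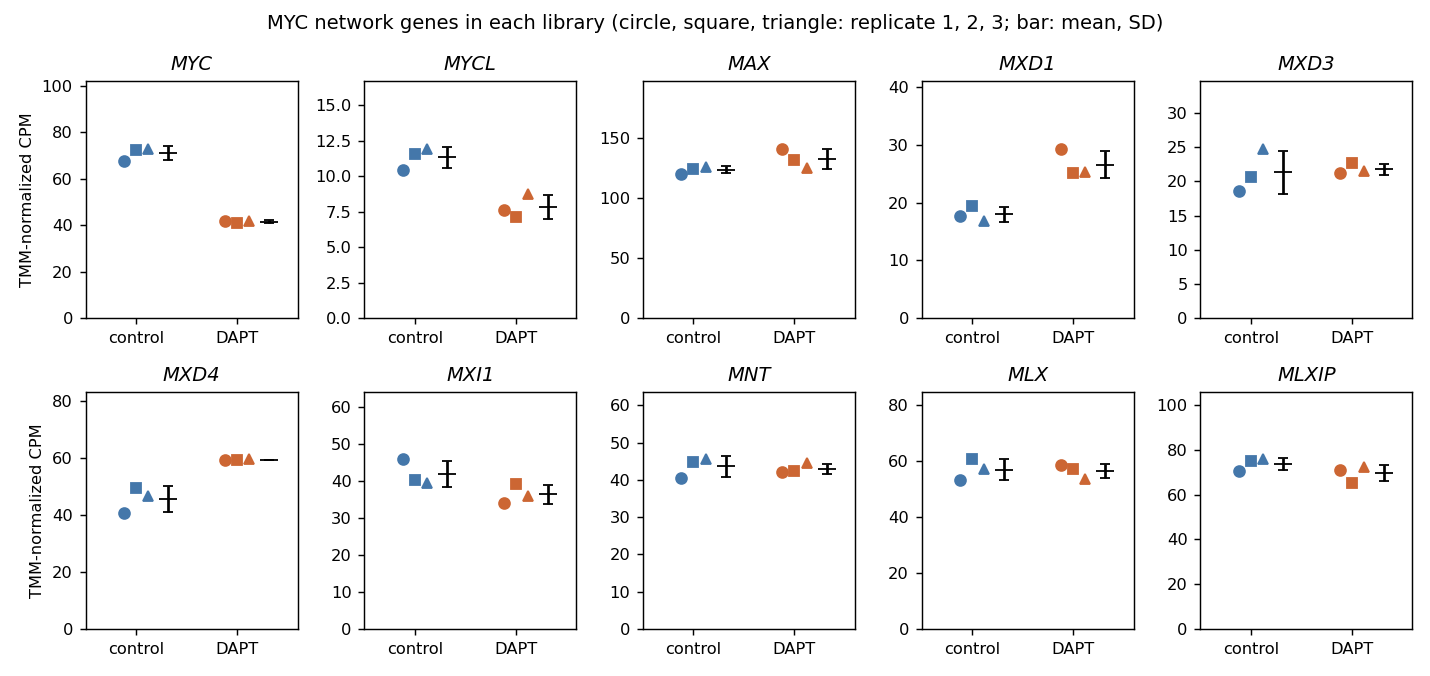
TMM-normalized CPM of the 10 members in each of the 6 libraries, with the y axes starting at 0. Circles, squares and triangles are replicates 1, 2 and 3, and the bars beside them give the mean and SD (n = 3). *MYC*, *MYCL* and *MXI1* lie lower and *MXD1* and *MXD4* higher in all 3 DAPT libraries, and the other 5 members overlap between the groups.

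Among the repressors, *MXD1* rose most. It is the founding MXD gene (chromosome 2, 69897688 to 69942945, plus strand), known to be induced as hematopoietic and epithelial cells differentiate. Control libraries held 17.7, 19.4 and 16.7 CPM and DAPT libraries 29.3, 25.2 and 25.3 CPM. The lowest DAPT library was above the highest control library. This was a 1.48-fold increase (log2 fold change 0.57, 95% interval 0.39 to 0.75, standard error 0.09, adjusted p = 2.45e-05 from edgeR), and the log2 value was 0.56 without control 1 (adjusted p = 4.91e-05, edgeR).

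*MXD4* encodes another SIN3-recruiting partner of MAX (chromosome 4, 2247432 to 2262109, minus strand). It was at 40.8, 49.5 and 46.9 CPM in controls and at 59.4, 59.2 and 59.5 CPM with DAPT. The DAPT libraries differed little from each other and all lay above the controls, of which control 1 was lowest. *MXD4* thus rose by 0.38 on the log2 scale (adjusted p = 2.16e-04 from edgeR, standard error 0.07). Without control 1 it was smaller, at 0.30 (adjusted p = 3.19e-04, edgeR).

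*MXI1* went the other way. This repressor gene on chromosome 10 (110207605 to 110287365, plus strand) has several promoters, and the counts sum over all of its transcripts. Its levels were 45.9, 40.4 and 39.6 CPM in controls and 34.1, 39.2 and 36.1 CPM with DAPT. The groups did not overlap, but DAPT 2 lay only just below control 3. *MXI1* had a log2 fold change of -0.21 (95% interval -0.37 to -0.04, adjusted p = 0.0436 from edgeR). This call was lost in 9 of 17 alternatives. Without control 1, the library with the fibroblast markers and the highest *MXI1* value, the log2 fold change was -0.13 (adjusted p = 0.153, edgeR). Without DAPT 1 it was -0.16 (adjusted p = 0.166) and without DAPT 3 it was -0.20 (adjusted p = 0.11), both from edgeR.

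*MXD3* encodes the MXD protein that is linked to S phase rather than to differentiation (chromosome 5, 177301461 to 177312757, minus strand). It was at 18.6, 20.7 and 24.8 CPM in controls and at 21.2, 22.7 and 21.5 CPM with DAPT. The DAPT values lay inside the control range. *MXD3* had a log2 fold change of 0.04 (95% interval -0.15 to 0.23), and it turned to -0.05 without control 1. *RAB24* on the same strand covers 18.0% of its exonic bases, and reads that overlapped both genes were not counted.

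*MNT*, which encodes a MAX-binding repressor found in most cells (chromosome 17, 2384073 to 2401104, minus strand), showed 40.5, 44.9 and 45.5 CPM in controls and 42.0, 42.5 and 44.6 CPM with DAPT. Its DAPT range lay within the control range. The log2 fold change was -0.02 with a 95% interval from -0.16 to 0.13, and -0.07 without control 1.

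**Figure D2:**
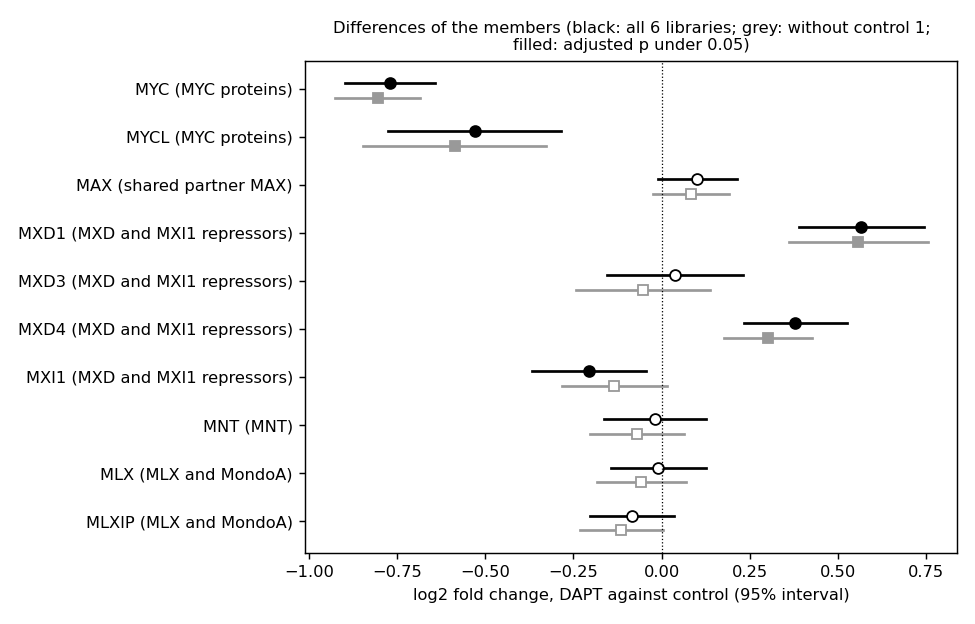
Log2 fold changes of the 10 members, DAPT against control, with 95% intervals from edgeR's quasi-likelihood fit. Black circles use all 6 libraries and grey squares leave out control 1, and filled symbols have an adjusted p under 0.05. *MYC*, *MYCL*, *MXD1* and *MXD4* are filled in both fits and *MXI1* only with all libraries.

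Levels of different genes were compared as CPM per kb of exonic length, on which scale *MAX* was the highest member in both groups, at 19.7 ± 0.463 in controls and 21.2 ± 1.30 with DAPT (SD, n = 3 each). In controls it was followed by *MYC* at 15.5 ± 0.645 and *MLX* at 13.4 ± 0.880 CPM per kb (SD, n = 3 each), each apart from its neighbours. *MXI1* (7.10 CPM per kb) and *MXD4* (6.65) overlapped, as did *MLXIP* (5.32) with *MNT* (5.01) and *MNT* with *MXD3* (4.14). *MXD1* (2.83 CPM per kb) and *MYCL* (2.23) were lowest and apart from each other. With DAPT, *MYC* at 9.05 ± 0.132 CPM per kb stood below *MLX* at 13.3 ± 0.598 (SD, n = 3 each), with no overlap, and just above *MXD4* at 8.64 CPM per kb. *MXD1* rose to 4.18 CPM per kb and overlapped *MXD3* at 4.23. The exonic length merges all transcripts of a gene, so a level per length is low for a gene whose cells use few of its exons.

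**Figure D3:**
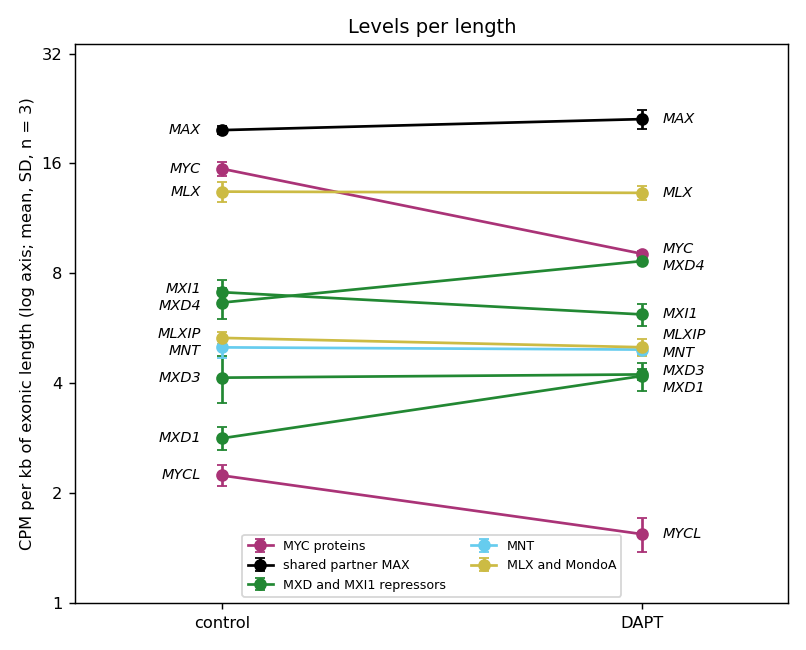
Level of each member as CPM per kb of exonic length on a log axis, mean and SD of 3 libraries in each group, coloured by role. *MYC* drops from 15.5 to 9.05, from above *MLX* to below it, while *MXD1* and *MXD4* climb.

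The rule for these genes sets activators against MXD and MXI1 repressors, and their balance was described in each library without a test, since it is a score over chosen genes. The summed level of *MXD1*, *MXD3*, *MXD4* and *MXI1* was 20.1, 21.1 and 21.0 CPM per kb in controls and 23.1, 23.6 and 22.9 with DAPT. That of *MYC* and *MYCL* was 16.8, 18.1 and 18.2 CPM per kb in controls and 10.6, 10.3 and 10.8 with DAPT. The ratio of repressors to MYC genes was 1.20, 1.17 and 1.15 in controls and 2.17, 2.29 and 2.11 with DAPT, with means of 1.17 ± 0.0245 and 2.19 ± 0.0906 (SD, n = 3 each). The groups stood far apart compared with their spread, and leaving out control 1 gave a control mean of 1.16. On the log2 scale the repressor sum differed by 0.16 and the MYC sum by -0.74 between the groups, so most of the shift in the ratio lay in the MYC genes. Within the repressor sum, *MXI1* moved against *MXD1* and *MXD4*. These are RNA levels and say nothing of the dimers formed.

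Taken singly, each repressor gained on *MYC*, and so did members that are no repressors, since *MYC* itself fell. The mean ratio to *MYC* went from 1.28 to 2.34 for *MAX*, from 0.865 to 1.47 for *MLX* and from 0.344 to 0.554 for *MLXIP*. The ratio of *MXD4* to *MYC*, in CPM per kb, was 0.403, 0.455 and 0.429 in controls and 0.945, 0.968 and 0.950 with DAPT. The 2 genes were thus near parity after treatment on this scale only. In CPM the means were 45.7 for *MXD4* and 70.9 for *MYC* in controls, and 59.4 and 41.5 with DAPT. For *MXD1* the mean ratio was 0.183 in controls and 0.462 with DAPT, for *MXI1* 0.461 and 0.682, and for *MXD3* 0.267 and 0.467. *MNT*, whose own level was not called, went from a mean ratio of 0.324 to 0.546. As a share of the summed CPM per kb of the 10 members, the MYC genes made up 21.6 ± 0.212% in controls and 13.6 ± 0.519% with DAPT, and the MXD and MXI1 genes 25.3 ± 0.308% and 29.7 ± 0.710% (SD, n = 3 each). A lower MYC share raises the other shares of the sum. The mean share of *MAX* went from 24.1% to 27.0%, that of *MNT* from 6.12% to 6.32% and that of *MLX* with *MLXIP* from 22.8% to 23.4%.

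**Figure D4:**
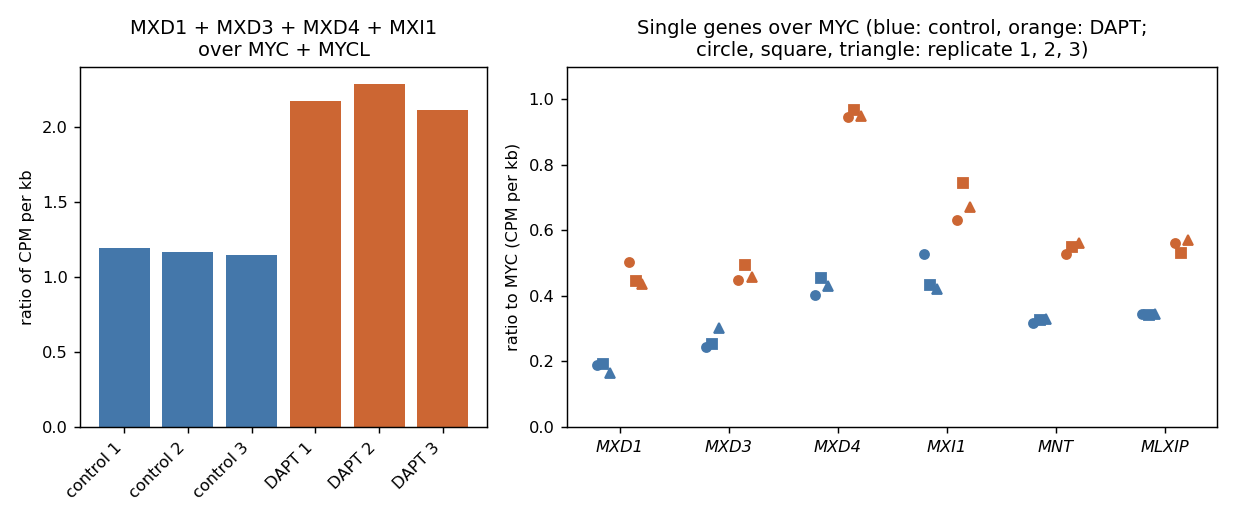
Left, ratio of the summed CPM per kb of *MXD1*, *MXD3*, *MXD4* and *MXI1* to that of *MYC* and *MYCL*, a bar for each library. Right, ratio of single genes to *MYC* in CPM per kb, with control libraries in blue and DAPT libraries in orange, and circles, squares and triangles for replicates 1, 2 and 3. The left ratio is 1.15 to 1.20 in controls and 2.11 to 2.29 with DAPT, and on the right every DAPT point lies above the control points of its gene.

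The members of the MLX arm showed no called difference. *MLX* (chromosome 17, 42567068 to 42573239, plus strand) was at 53.2, 60.7 and 57.3 CPM in controls and 58.7, 57.3 and 53.8 CPM with DAPT, with a log2 fold change of -0.01 (95% interval -0.14 to 0.13). *MLXIP* (chromosome 12, 122078756 to 122147344, plus strand) was at 70.6, 75.0 and 75.8 CPM in controls and 71.1, 65.4 and 72.3 CPM with DAPT, with a log2 fold change of -0.08 (95% interval -0.20 to 0.04). Both genes overlapped between the groups. Without control 1 the values were -0.06 for *MLX* and -0.11 for *MLXIP*, neither of them called. *MLXIPL*, which encodes the liver-enriched paralog ChREBP and is no member, was low and fell, with 3.43, 4.26 and 4.31 CPM in controls and 2.14, 1.32 and 2.46 CPM with DAPT (log2 fold change -1.01, 95% interval -1.46 to -0.55, adjusted p = 0.00111 from edgeR). *MGA*, a large MAX-binding scaffold protein gene outside the members, had a log2 fold change of 0.07 (95% interval -0.04 to 0.19).

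A list of 4 genes was taken as MondoA targets from general knowledge. Of its 3 tested genes, 2 were higher with DAPT, where 17.2% of all tested genes were higher. *PKLR*, also on the list, had at most 2 reads in any library and was not tested. *TXNIP*, an arrestin that limits glucose uptake, was at 480, 479 and 450 CPM in controls and 935, 1032 and 993 CPM with DAPT. *ARRDC4*, which encodes a related arrestin, was at 37.3, 37.7 and 35.2 CPM in controls and 68.5, 73.0 and 69.6 CPM with DAPT. In both genes the DAPT libraries lay far above the controls. The log2 fold changes were 1.07 (standard error 0.05, adjusted p = 3.95e-13) and 0.94 (standard error 0.06, adjusted p = 1.7e-10), both from edgeR, and without control 1 they were 1.09 and 0.95. The remaining tested gene of the list, *KLF10*, had a log2 fold change of -0.04 and was not called.

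The E-box CACGTG, read on both strands, was looked for in the RefSeq promoter windows of the members (GRCh38.p14, 250 bases before to 50 after each start). Of the 10 members 9 had a window, all but *MYC*, with 12 windows in all. An E-box was found in 3 of the 12 windows, those of *MXD4*, *MNT* and *MLX*, and 7.26% of all 35116 windows hold one. Of these 3 members, *MXD4* changed. The windows are shown because MYC, MXD and MLX dimers share this site, and capitals mark the motif. They lie at chr4:2262322-2262359 (minus strand), chr17:2401228-2401273 (minus strand) and chr17:42567030-42567075 (plus strand).
MXD4: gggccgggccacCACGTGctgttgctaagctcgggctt
MNT: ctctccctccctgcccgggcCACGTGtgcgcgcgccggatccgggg
MLX: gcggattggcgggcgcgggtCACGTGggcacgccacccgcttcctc

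MondoA and MLX are known to bind the carbohydrate response element, a tandem pair of E-box-like sites with a spacer between them, searched on both strands as a consensus of 17 bases, which may overlap an E-box. The pattern was present in 0.501% of all windows. *TXNIP* held a match 88 bases before its first listed start (chr1:145996631-145996687, minus strand), and *ARRDC4* held an E-box 210 bases before its start (chr15:97960473-97960518, plus strand). Among the members, *MXI1* held a match on the opposite strand before its second listed start (chr10:110210141-110210197, plus strand). Since the pattern is loose, this match need not be a carbohydrate response element, and binding was not tested. Capitals mark the match.
TXNIP: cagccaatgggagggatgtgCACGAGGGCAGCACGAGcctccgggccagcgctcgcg
ARRDC4: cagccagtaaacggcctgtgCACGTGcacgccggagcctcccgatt
MXI1: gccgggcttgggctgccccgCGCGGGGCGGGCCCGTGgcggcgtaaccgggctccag
The core of the site bound by RBPJ, the DNA-binding partner of the Notch intracellular domain (GTGGGAA, both strands), was in 0 of the 12 member windows and in 6.25% of all windows. *MYC* had no window, so its promoter was not searched. A match is a description of the letters in these windows and no match says only that they are not there.

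Among 39 tested genes that MYC is known to activate, 22 were lower and 3 were higher with DAPT, where 18.0% of all tested genes were lower and 17.2% higher. The median log2 fold change was -0.20 against 0.01 for all tested genes. Like the other lists, this list was chosen with earlier results of these data known, so its counts are a description. The strongest calls on the lower side were *LDHA* (lactate dehydrogenase, log2 fold change -0.58, standard error 0.05), *PAICS* (purine synthesis, -0.60, standard error 0.05) and *FBL* (the nucleolar methyltransferase fibrillarin, -0.64, standard error 0.06). The 3 genes that rose were *SHMT2* (mitochondrial serine to glycine conversion, 0.51, standard error 0.05), *ODC1* (polyamine synthesis, 0.37, standard error 0.05) and *CCND2* (a G1 cyclin, 0.30, standard error 0.06). *LDHA* went from 2169 to 1450 CPM in the group means and *SHMT2* from 144 to 204 CPM. Leaving out any single library gave 17 to 23 lower and 3 higher genes. Moving with them, 38 of 43 S phase genes were lower, among them the replicative helicase genes *MCM7* (-0.77), *MCM6* (-0.73) and *MCM4* (-0.59). *POLR1B* is on both lists, and the part of cell cycle state in the fall of the MYC-activated genes was not tested.

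Of 8 tested genes that MYC is known to repress, 4 were higher and 3 were lower, beside 17.2% and 18.0% of all tested genes. Their median log2 fold change of 0.13 was not stable, being 0.053 without control 1, 0.068 without DAPT 2 and -0.036 with DESeq2, which gave a value for 9 genes of the list. *DDIT3*, the stress-induced factor CHOP, rose by 1.25 on the log2 scale (standard error 0.09, mean 17.2 to 41.0 CPM), *GADD45A*, a growth arrest gene, by 0.77 (standard error 0.08), and *CDKN1B*, which encodes the CDK inhibitor p27, by 0.32 (standard error 0.05). The fourth was *CDKN1A*, which encodes p21, with 0.29. *NDRG1* (-0.65), *THBS1* (-0.70) and *CDKN2B* (-0.18) were lower. *THBS1*, which encodes the secreted protein thrombospondin 1, was highest in control 1, at 354 CPM against 237 and 261 CPM in the other controls, and had a log2 fold change of -0.51 without that library. Leaving out any single library gave 4 higher and 1 to 2 lower genes, with 1 lower without control 3, DAPT 2 or DAPT 3, and *CDKN2B* was not called without control 1 (log2 fold change -0.15).

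For the partners of the network, the counts of called genes are to be read beside the 17.2% higher and 18.0% lower of all tested genes, and several are near those shares. Of 10 tested genes for corepressors of the MXD proteins, 4 were lower and 1 was higher, with a median log2 fold change of -0.09. *HDAC2* (-0.28) and *HDAC1* (-0.22), histone deacetylases of the SIN3 complex, and *RBBP4* (-0.16), a histone-binding subunit, were the strongest lower calls, and *NCOR1* (0.31), a nuclear receptor corepressor, was higher. *SIN3A* (-0.12) and *SIN3B* (0.02), the scaffolds that MXD proteins bind, were not called. Of 13 genes for MYC cofactors, 5 were lower and 3 were higher. The lower genes include *BIN1* (-0.22), which encodes a MYC-binding inhibitor. *ACTL6A* (-0.24), *KAT2A* (-0.21) and *RUVBL1* (-0.18), of chromatin remodelling and acetyltransferase complexes, were lower. *BPTF* (0.29), *TRRAP* (0.15) and *EP400* (0.14), large scaffolds and remodellers, were higher. When single libraries were left out, 2 to 4 corepressor genes were lower, with 2 without DAPT 3. Among the cofactors 2 to 6 were then lower and 1 to 2 higher, with 2 lower without control 2, control 3, DAPT 2 or DAPT 3, and 1 higher without control 3 or DAPT 3. *EP400* was not called without control 1 (0.12). Scaling by library size alone, which moved the median of all tested genes from 0.01 to 0.06, gave 2 higher and 2 lower corepressor genes and turned the cofactor split to 3 higher and 2 lower.

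Of 18 genes that act on the stability of the MYC protein, 6 were higher and 4 were lower, with a median log2 fold change of 0.09. The list mixes genes that stabilize MYC with genes that promote its degradation, so these counts and this median give no direction for MYC stability. The lower count is near the 18.0% of all tested genes, and so are the counts with a library left out. On the lower side were *PIM1*, a kinase that stabilizes MYC (-0.40, standard error 0.07), *SKP2*, a ubiquitin ligase subunit (-0.30, standard error 0.05), and *CIP2A*, an inhibitor of the phosphatase PP2A (-0.30, standard error 0.06). On the higher side were *HUWE1*, a ubiquitin ligase (0.24, standard error 0.05), *PPP2R5A*, a PP2A subunit that targets MYC (0.25, standard error 0.05), and *GSK3B*, the kinase that marks MYC for degradation (0.15, standard error 0.05). *FBXW7*, the ubiquitin ligase subunit that reads that mark, was at 24.2, 21.6 and 21.3 CPM in controls and 22.1, 24.3 and 24.6 CPM with DAPT. Its groups overlapped (log2 fold change 0.07, 95% interval -0.09 to 0.24). With a library left out, 3 to 4 genes were higher and 3 to 4 lower, so the count of 6 higher genes rested on having all 6 libraries, with 3 higher without control 2 or DAPT 3. DESeq2 gave 3 higher and 3 lower.

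**Figure D5:**
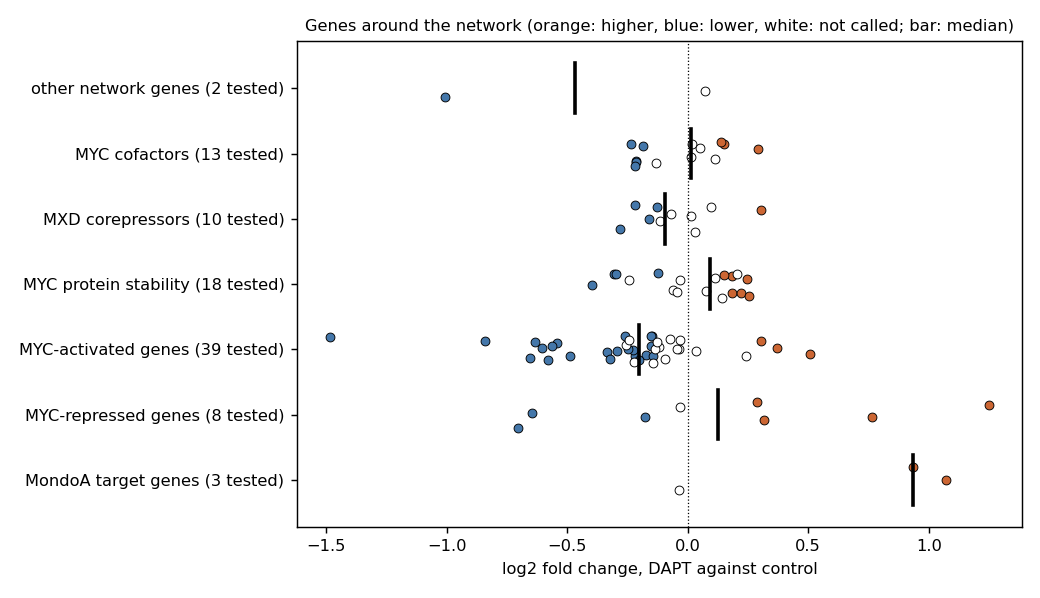
Log2 fold changes, DAPT against control, of the tested genes of 7 lists around the network, with black bars at the list medians and vertical scatter added for legibility. Orange genes were higher and blue genes lower at an adjusted p under 0.05 (edgeR), and white genes were not called. The MYC-activated list lies mostly below 0, with a median of -0.20, and 2 of the 3 tested genes of the MondoA list lie near 1.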

How the data were processed

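Stranded mRNA libraries were sequenced as single-end reads. The authors used Trim Galore for trimming, HISAT2 for mapping to GRCh38 and featureCounts 1.6.3 for counting over exons on 1 strand, with an annotation file named for Ensembl release 96. They deposited raw read counts per gene and library. Reads that mapped to several places or overlapped several genes were not counted. HTSeq and DESeq2 are also named in the submitters' processing notes, without a role.

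Groups and replicate numbers came from the sample titles. Symbols came from GENCODE release 44, matched by identifier for 58472 of 58884 genes, and coordinates from the count tables. Counts of all genes were fitted with edgeR 4.0.16 in R 4.3.3 (low-count filter by group with minimum count 10, TMM normalization, robust quasi-likelihood fit and F test, Benjamini-Hochberg adjustment over 15001 genes). CPM uses the TMM-scaled library sizes. Standard errors were derived from the F statistic. The procedures were tested on simulated data. The S phase list is that of Seurat 5.3.0 and the other lists were written from general knowledge. Members and lists were chosen with earlier results of these data known. Named genes were the members, *MYCN*, *MLXIPL*, *MGA*, *PVT1*, *HES1*, *HEY1*, *TXNIP*, *ARRDC4*, *FBXW7* and, per list, up to 3 called genes with the smallest adjusted p in each direction. *CDKN1A*, *KLF10*, *PKLR*, *SIN3A*, *SIN3B*, *BIN1* and the cell type markers were added to complete a list. The alternatives were edgeR's likelihood ratio test, DESeq2 1.42.0, limma-voom (limma 3.58.1), RLE and upper quartile normalization, library size alone, other low-count filters, a fit that is not robust, a replicate block, an adjusted p under 0.01 and each library left out in turn.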

Additional observations from a re-analysis of the deposited data

How the results depend on the processing

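The directions and calls of *MYC*, *MYCL*, *MXD1* and *MXD4* were the same in all 17 alternatives, with log2 fold changes of -0.81 to -0.72, -0.61 to -0.47, 0.49 to 0.62 and 0.30 to 0.44. *MXI1* stayed lower in all 17 but was not called in 9, with adjusted p-values from 0.0321 to 0.166 over the 17, and 1 of the 9 is the threshold of 0.01 itself. Its adjusted p was 0.0658 with edgeR's likelihood ratio test, 0.114 with DESeq2, 0.118 with scaling by library size alone and 0.0553 in a fit that is not robust. The number of members lower with DAPT was 2 or 3 and that of members higher 2 when any library was left out.

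With a replicate block that pairs same-numbered libraries, 2 members were higher and 2 were lower, *MXI1* at a log2 fold change of -0.21 (adjusted p = 0.0512, edgeR), and no other member call changed. The correlations of same-numbered libraries, taken as deviations from their group means over 14199 genes, were 0.0245, 0.0442 and -0.0116, and no source says that such cultures were handled together.

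The signs of members near 0 turned in some alternatives. Scaling by library size alone gave log2 fold changes of 0.0286 for *MNT* and 0.0379 for *MLX*. Leaving out single libraries moved *MNT* between -0.0707 and 0.00709, *MLX* between -0.0580 and 0.0346 and *MXD3* between -0.0537 and 0.147, with *MXD3* below 0 without control 1, *MNT* above 0 without control 2 or control 3, and *MLX* above 0 without control 2 or DAPT 3. The log2 difference of the balance of MXD and MXI1 to MYC genes was 0.90. It was 0.83 without *MXD1* and 0.72 with *MLXIP* among the activators, which follows from the genes summed, and 0.87 to 0.93 when a library was left out. Over all genes, 2574 were higher in edgeR's quasi-likelihood test, 1646 with DESeq2 and 1516 at an adjusted p under 0.01. Depth limits *MYCL*, *MLXIPL* and other genes with few reads most.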
